A study of Mus musculus with 3 samples.

Results

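The 10 genes Kdr, Flt1, Flt4, Nrp1, Tek, Tie1, Eng, Pecam1, Cdh5 and Esam encode receptors and adhesion molecules of endothelial cells, and their binding by the co-repressor ETO2 was examined. A peak was assigned to a gene when its summit, the base with the most fragments, lay in the gene body or within 100 kb of it, or when the nearest protein-coding start site was that of the gene. By this rule 8 of the 2335 peaks of replicate 1 and 7 of the 1873 peaks of replicate 2 belonged to the 10 genes. Overlapping peaks of both replicates were joined, giving 10 regions at these genes out of 3192 regions in all.

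ETO2 was immunoprecipitated with antibody sc-9741x (Santa Cruz) from FLK1+ mesoderm of embryoid bodies (EBs) grown from wild type ES cells. The ES line was J1, the strain is given as C57Bl/6 X Sv129, and the cells came from 2 separate differentiations. They were stained with a dye-conjugated antibody to FLK1 and isolated with magnetic beads that bind the dye. The sample labels and the methods give day 4 of EB culture, whereas the design text of the series gives day 3.5. There were 2 ChIP samples and 1 input sample, for which the labels list no antibody. Replicate 1 was called against an input and replicate 2 without one, so fold enrichments and q values are read within each list and not between lists. The labels name the lists replicate 1 and replicate 2, but the deposited names of both lists carry the same ChIP number, so a region found in both lists is independent replication only as far as the labels hold. The lists hold one cell population only, without an FLK1- fraction or a time course.

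ETO2 (gene Cbfa2t3) does not bind DNA itself and is brought to chromatin by partners such as the SCL, E protein, LMO2, LDB1 and GATA complex of blood and endothelial cells. The VEGF receptors and the angiopoietin receptor system are tyrosine kinases through which vessels form and mature, while PECAM1, VE-cadherin and ESAM sit at the junctions between endothelial cells. Kdr has a further role here, since it encodes FLK1, the surface protein by which the cells were sorted and the receptor that marks mesoderm able to form blood and vessels.

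Of the 10 genes, 6 had a peak in at least 1 list (Kdr, Flt1, Tie1, Pecam1, Eng and Esam), and 4 of them (Kdr, Flt1, Pecam1 and Esam) had a region found in both lists. Flt4, Nrp1, Tek and Cdh5 had none. By the same rule a peak of either list fell to 27.8% of the 22372 protein-coding genes and a region of both lists to 11.1%. Replicate 1 alone gave peaks at 6 of the 10 genes, and replicate 2 alone at 5, with none at Tie1. The share of all genes was not computed for each list alone, so the counts by replicate have no such share beside them. These are descriptions with no test, and the rule favours long genes: the median length was 44.6 kb for the 10 genes and 15.4 kb for all.

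**Figure D1:**
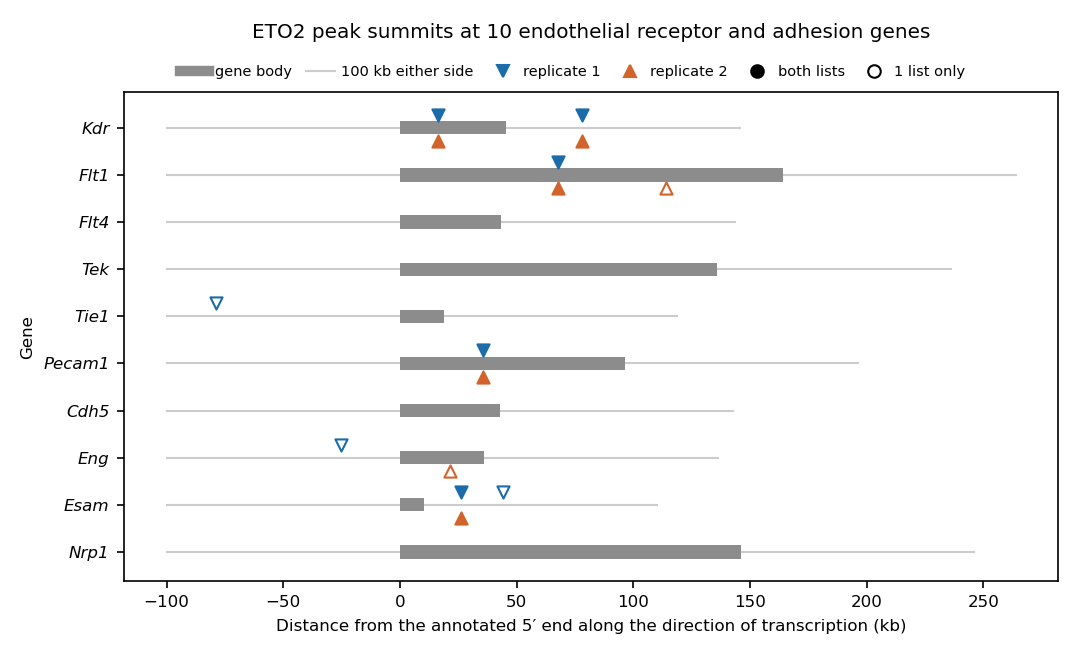
ETO2 peak summits at the 10 genes, drawn in kb from the annotated 5′ end in the direction of transcription (horizontal axis), with the gene body as a grey bar and 100 kb either side as a line. Downward triangles are replicate 1, upward triangles replicate 2, filled where both lists hold the region. Filled pairs stand at Kdr (at 16.1 and 77.9 kb), Flt1 (67.9 kb), Pecam1 (35.4 kb) and Esam (26.3 kb), and the lines of Flt4, Tek, Cdh5 and Nrp1 are empty.

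The 100 bases centred on the replicate 1 summit of all 5 shared regions are shown first, because the regions differ in the motifs that they hold. All are on the plus strand of mm9, 5′ to 3′. Capitals mark the GATA motif (GATA preceded by A or T and followed by A and then A or G, on either strand) and, where CTG stands 8 to 10 bases before GATA on the same strand, the CTG and the GATA of that pair. CTG is one side of the E-box bound by SCL and its partners. The Kdr intron, Flt1 and Pecam1 windows follow the rule for shown sequences, and the Kdr downstream and Esam windows were added after their values were seen.
Kdr intron, chr5:76358337-76358436: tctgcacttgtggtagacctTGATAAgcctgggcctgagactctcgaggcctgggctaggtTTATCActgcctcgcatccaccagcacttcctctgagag
Kdr downstream, chr5:76296531-76296630: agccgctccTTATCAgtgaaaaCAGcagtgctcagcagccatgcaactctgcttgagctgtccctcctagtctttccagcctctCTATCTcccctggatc
Flt1 intron, chr5:148469619-148469718: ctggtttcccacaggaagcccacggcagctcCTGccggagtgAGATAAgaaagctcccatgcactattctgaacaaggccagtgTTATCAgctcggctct
Pecam1 start site, chr11:106576500-106576599: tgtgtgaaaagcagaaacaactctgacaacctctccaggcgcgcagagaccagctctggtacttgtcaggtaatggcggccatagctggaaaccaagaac
Esam downstream, chr9:37361914-37362013: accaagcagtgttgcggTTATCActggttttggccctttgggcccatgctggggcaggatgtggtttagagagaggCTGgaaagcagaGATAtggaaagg

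Kdr carried the most ETO2 fragments of the 10 genes. It lies on the minus strand of chromosome 5 (76328852 to 76374483, 45.6 kb). Of its 2 shared regions, the one with more fragments and the higher fold enrichment, chr5:76358204-76358627, lay inside the gene, 16.1 kb from the start site. It fell in intron 10 of both coding transcripts and in an exon of a transcript without a coding sequence. The summit held 56 fragments in replicate 1 (exact 95% Poisson interval 42.3 to 72.7) over a local background of 5.96, a fold enrichment of 8.46 with a −log10 q of 41.3. Folds were formed in the peak calling with 1 added to fragments and to background, both first multiplied by 1.34 in replicate 1, and are therefore lower than the plain ratio. The p and q values of replicate 1 also rest on the multiplied numbers. Replicate 2 placed its summit 10 bp away with 53 fragments (39.7 to 69.3), a fold enrichment of 7.65 and a −log10 q of 26.8. The fragment intervals of the replicates overlapped, but fragment numbers are not scaled for depth between the replicates. The site ranked at percentile 84.0 of fold enrichment in list 1 and 88.1 in list 2. These Poisson intervals cover counting error only and leave out variation between differentiations or ChIPs. The fragments are PCR products without molecular identifiers, from which the authors removed duplicates.

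A further region found in both lists lay downstream of Kdr, at chr5:76296350-76296723, in the interval between Kdr and Kit. It was intergenic, 32.3 kb beyond the 3′ end of Kdr and 244.0 kb from Kit, the stem cell factor receptor gene, and Kdr had the nearest start site at 77.9 kb. Replicate 1 had 32 fragments there (21.9 to 45.2; fold enrichment 7.98; −log10 q 22.1) and replicate 2 had 26 (17.0 to 38.1; fold enrichment 4.33; −log10 q 6.74), with summits 2 bp apart. The downstream site held fewer fragments and a lower fold enrichment than the intronic one in both lists. Its local background was also lower, 3.36 against 5.96 fragments in replicate 1 and 5.24 against 6.06 in replicate 2. The fragment intervals of the pair did not overlap in replicate 2. In replicate 1 they overlapped between 42.3 and 45.2 fragments. On the side of the start site, a replicate 2 peak with 28 fragments stood just outside the limit, 101 kb from the gene body, and Srd5a3 had the nearest start site.

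Flt1, which encodes VEGFR1, a receptor with high affinity and weak kinase activity that can hold VEGF away from FLK1, lies on the minus strand of chromosome 5 (148373180 to 148537587). The shared region chr5:148469519-148469847 fell in intron 10 of all 3 coding transcripts that span it, 67.9 kb from the start site. Both replicates had 28 fragments at the summit (18.6 to 40.5), and the summits were 5 bp apart. Fold enrichment was 7.63 in replicate 1 (−log10 q 19.0) and 4.68 in replicate 2 (−log10 q 8.21), over backgrounds of 3.02 and 5.19 fragments. The equal fragment numbers stood over unequal local backgrounds, and the folds are read within each list.

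Another Flt1 peak, chr5:148423021-148423182 in intron 15, appeared in replicate 2 only. The summit had 33 fragments (22.7 to 46.3) and a fold enrichment of 5.49, and 0.0% of the 24-base words of its window were found once in the genome, against 100% in the windows of every other member peak. Replicate 2 was called without an input, and the part of repeated sequence in this peak was not tested.

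The remaining VEGF receptor genes had no peak. Flt4 encodes VEGFR3, the receptor of lymphatic vessels, and its nearest summit was 329 kb from the gene body, a replicate 1 peak with 26 fragments. Nrp1, the neuropilin that acts as a VEGF co-receptor, is 146 kb long, and its nearest summit was 325 kb away. That region was found in both lists, with 41 and 32 fragments in replicates 1 and 2.

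In the angiopoietin receptor system, Tek (TIE2, the angiopoietin receptor) had no peak within its 136 kb or within 100 kb either side. The nearest summit, 282 kb away, was a shared region with 44 fragments in each replicate, 105 kb from the start site of Jun. Tie1, the orphan partner of TIE2, had a single peak in replicate 1 only, chr4:118241318-118241625. It was 78.8 kb upstream, in intron 21 of the longest Wdr65 transcript, with the start sites of 2610528J11Rik and Tmem125 between peak and gene. It held 27 fragments (17.8 to 39.3), equal to the list median of 27, with a fold enrichment of 7.36 and a −log10 q of 18.0. Tie1 was the one member that lost its peak when the distance was reduced to 50 kb.

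Eng, which encodes endoglin, a TGF-beta family co-receptor of endothelial and early haematopoietic cells, had one peak in each list at different places. The replicate 1 peak (chr2:32476747-32477064; 29 fragments, 19.4 to 41.6; fold enrichment 5.7) was 25.2 kb upstream of Eng and 0.379 kb upstream of the start site of Ak1, an adenylate kinase gene. The replicate 2 peak (chr2:32523392-32523559; 25 fragments, 16.2 to 36.9; fold enrichment 4.2) lay in intron 2 of Eng in 3 of the 4 coding transcripts that span it and intron 3 in the other, 5.41 kb upstream of an internal Eng start site. Each held fewer fragments than the median shared peak of its list, 37 in replicate 1 and 36 in replicate 2. The same held for the shared regions at Flt1 and downstream of Kdr, and for that of Esam in replicate 1. Beside the median of all peaks of the list, 27 and 35, the replicate 1 peak of Eng was higher and the replicate 2 peak lower.

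**Figure D2:**
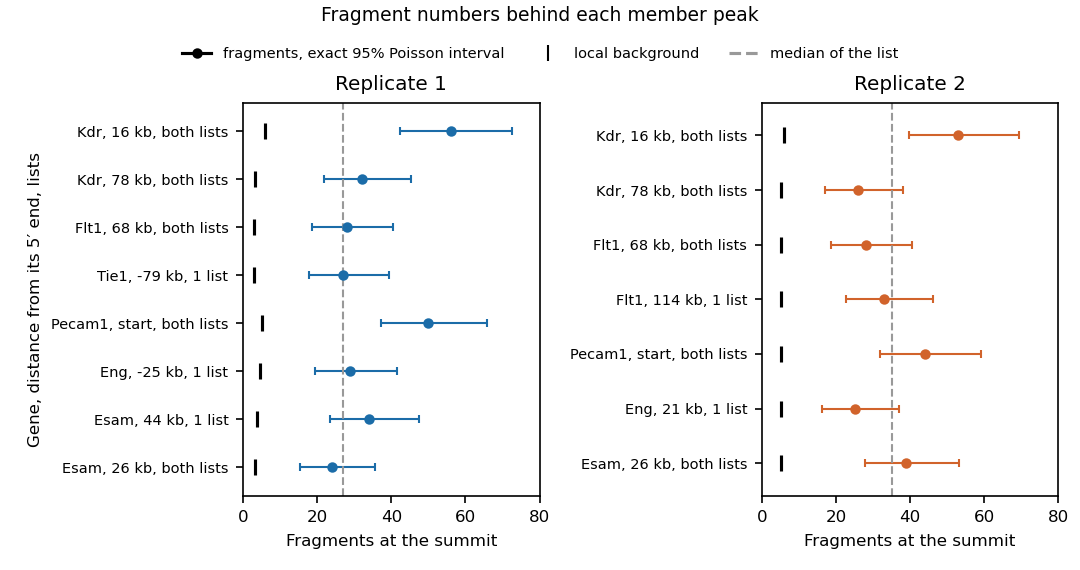
Fragments at the summit of each member peak (horizontal axis, number of fragments; points with exact 95% Poisson intervals), one panel per replicate, with the local background as a black tick and the median of all peaks of the list as a dashed line. Rows give the gene, the distance of the summit from its 5′ end (negative upstream; for Pecam1 the peak is at a start site) and whether 1 or both lists hold it. The Kdr intron (56 and 53 fragments) and the Pecam1 start site (50 and 44) stand highest in both panels.

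Among the junction genes, Pecam1 (PECAM1 or CD31, a homophilic adhesion molecule of endothelial cells, platelets and leukocytes) was the one member with a peak at a start site. The gene spans 106515531 to 106611942 on the minus strand of chromosome 11. Its region chr11:106576374-106576739 fell in the untranslated first exon of 4 coding transcripts, and 5 of its 6 annotated start positions lay within 1 kb of the summit, the other being 35.4 kb upstream. Replicate 1 had 50 fragments (37.1 to 65.9; fold enrichment 8.51; −log10 q 37.2) with the summit 23 bp downstream of the start position 106576573. Replicate 2 had 44 fragments (32.0 to 59.1; fold enrichment 7.27; −log10 q 21.4) with the summit on that base itself. Pecam1 ranked at percentile 84.4 and 85.1 of fold enrichment in the respective lists, close to the Kdr intron.

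Esam, an immunoglobulin-type adhesion molecule of endothelial tight junctions and platelets, occupies 10.2 kb of chromosome 9 (37335663 to 37345904, plus strand). The shared region chr9:37361854-37362105 lay beyond its 3′ end, by 16.1 kb in replicate 1 and 16.0 kb in replicate 2. The start sites of Vsig2 and Nrgn stood between region and gene, and the nearest, that of Nrgn, which encodes neurogranin, was 1.63 kb from the replicate 1 summit. There were 24 fragments in replicate 1 (15.4 to 35.7; fold enrichment 6.34; −log10 q 13.9) and 39 in replicate 2 (27.7 to 53.3; fold enrichment 6.46; −log10 q 16.9), and the summits were 24 bp apart. The fragment numbers are not scaled for depth between the replicates and stood over local backgrounds of 3.16 and 5.19 fragments. The higher number in replicate 2 is therefore not read as stronger binding, and the intervals overlapped. A replicate 1 peak farther out, chr9:37379840-37380178, held 34 fragments (23.5 to 47.5; fold enrichment 7.65) at 34.1 kb from the gene, with Nrgn again nearest at 19.7 kb.

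Cdh5, which encodes VE-cadherin, the cadherin of endothelial adherens junctions, was the most distant of the 10 genes from any peak. The nearest summit was 1377 kb away, in a region of both lists near Hsd11b2, and 9.76% of all genes were farther from a peak. Cdh5 and Nrp1 are both on chromosome 8, where the median local background of the listed peaks was higher than over the whole list, 5.96 against 4.47 fragments in replicate 1 and 8.14 against 5.6 in replicate 2. Its part in the absence of peaks was not tested. The weakest listed peaks on that chromosome held 13 and 19 fragments in replicates 1 and 2, so the lists do not tell whether weaker sites were present at these genes.

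**Figure D3:**
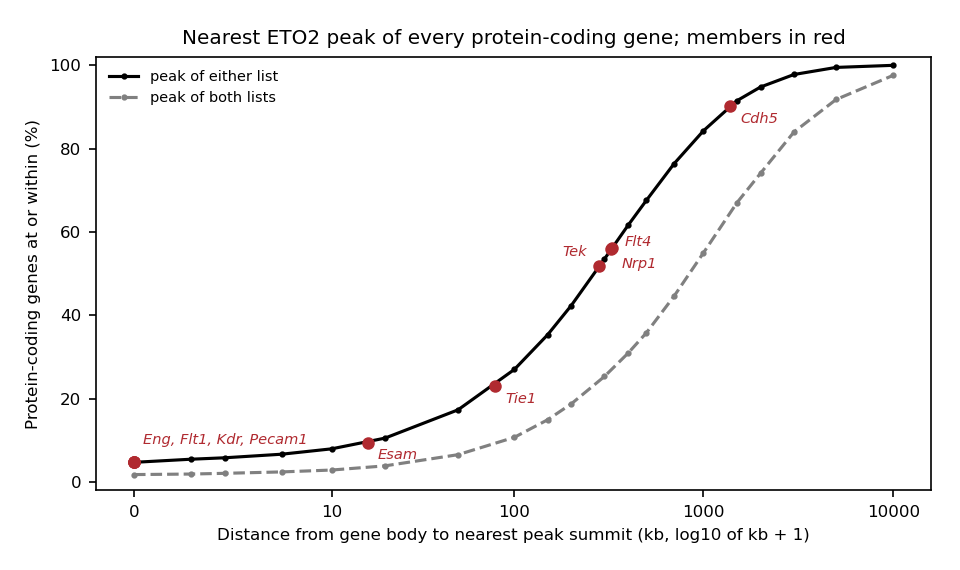
Share of all protein-coding genes (vertical axis, %) whose gene body lies at or within a given distance of the nearest ETO2 summit (horizontal axis, kb, log scale of kb + 1), for peaks of either list (black) and of both lists (grey, dashed), with the 10 members in red on the black curve. Eng, Flt1, Kdr and Pecam1 lie at 0 kb, Esam at 16.0 kb, Tie1 at 78.8 kb, Tek, Nrp1 and Flt4 between 282 and 329 kb, and Cdh5 at 1377 kb.

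The number of members with a peak depended on how peaks were assigned to genes. A summit inside the gene body was found at Kdr, Flt1, Pecam1 and Eng, 4 of the 10 genes, beside 4.69% of all genes. For regions of both lists this left Kdr, Flt1 and Pecam1, 3 of 10, beside 1.75%. By the nearest start site alone the same 4 genes had a peak, beside 9.61% of all genes, and the same 3 a region of both lists, beside 3.75%. The median distance from the gene body to the nearest summit was 47.4 kb for the 10 genes and 265 kb for all genes.

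The fold enrichments of the shared regions of the 10 genes lay between percentiles 67.6 and 84.4 of list 1 and between 32.2 and 88.1 of list 2. Their median fold enrichment was 7.98 in replicate 1 (6.34 to 8.51, n = 5 regions) beside 6.83 for all 1003 shared peaks, and 6.46 in replicate 2 (4.33 to 7.65, n = 5) beside 5.38 for 1015. Median fragments were 32 beside 37 in replicate 1, and 39 beside 36 in replicate 2. Of the 10 member regions, 5 were found in both lists (50%), as were 1002 of all 3192 (31.4%), while 3 were in replicate 1 only and 2 in replicate 2 only.

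The shared windows were next read for short motifs, counted on both strands. The GATA motif was present in 4 of the 5 (80%, exact 95% binomial interval 28.4% to 99.5%), all but Pecam1, beside 72.5% of the 1003 shared windows of replicate 1 and 16.7% of flanks 500 bp away. With the replicate 2 summits the share was again 80%, beside 73.0%. Of these windows, 3 held 2 GATA motifs (both Kdr sites and Flt1, 60%), beside 25.6% of all shared windows, a feature counted after the windows were seen. In the Kdr intron and in Flt1 the motifs of the pair faced each other on opposite strands, and at the downstream Kdr site both lay on the minus strand.

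The pairing of CTG with GATA at 8 to 10 bases occurred in 3 of the 5 windows, beside 36.7% of all shared windows of replicate 1. The spacing was 8 bases at the downstream Kdr site, 9 at Flt1 and 9 at Esam, and at Esam the GATA of the pair was not one of the GATA motifs counted above. On the replicate 2 summits, 24 bp away at Esam, 2 of the 5 windows held a pair, beside 38.1% of all shared windows of replicate 2. The member site with the most fragments, the Kdr intron, held no such pair. It was the one shared window with CANNTG, the full E-box, which 47.9% of all shared windows held. CAGCTG, one form of that E-box, was in 0 of 5 (14.6% of all), and AGGAA, the ETS core, in 2 of 5, the Kdr intron and Flt1 (46.0% of all). On the replicate 2 summits AGGAA was in 1 of 5, at Flt1 and not in the Kdr intron (47.6% of all). The Pecam1 window held none of these motifs, and the GATA motif was absent from its whole 366 bp peak as well.

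**Figure D4:**
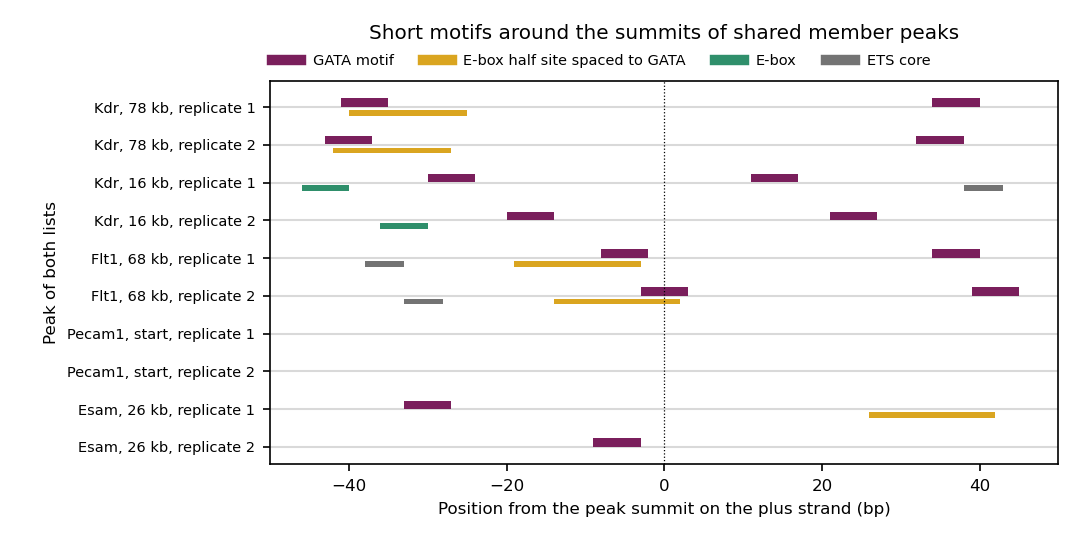
Positions of short motifs within 50 bp of the summit (horizontal axis, bp on the plus strand; one row per peak of the 5 shared regions and replicate). Purple bars are GATA motifs, yellow bars CTG spaced to GATA, green bars CANNTG and grey bars AGGAA. The Kdr and Flt1 rows show 2 purple bars each, the Esam rows 1 and the Pecam1 rows none.

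Peaks of 1 list differed by replicate. The 3 windows of replicate 1 only (Tie1, Eng upstream and Esam at 34.1 kb) all held the GATA motif, beside 57.8% of all such windows. The 2 of replicate 2 only, Flt1 intron 15 and the Eng intron, held none, beside 27.9%. The Tie1 and upstream Eng windows, 2 of these 3, held CTG spaced 8 bases from GATA, beside 24.7% of all windows of replicate 1 only with the pair. With 3 and 2 windows these counts are descriptions only.

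A list of 38 other vessel genes gave the surroundings of the 10 members, and 18 of them (47.4%) had a peak by the same rule and 5 (13.2%) a region of both lists. Over all protein-coding genes these shares were 27.8% and 11.1%. Of 7 VEGF and angiopoietin ligand genes, 2 had a peak (Vegfb and Angpt1) and none a shared region, so Vegfa, whose product binds FLK1, had neither. Of 12 other receptor genes, 7 had a peak and 3 a shared region. These were Aplnr, the apelin receptor, with fold enrichments of 20.4 and 8.41 in replicates 1 and 2 at 1.08 kb from the gene, Acvrl1, which encodes the ALK1 receptor that endoglin assists (6.65 and 5.01), and Stab2, a scavenger receptor (6.33 and 5.57), whose region lay 29.3 kb outside the gene with the start site of 1700113H08Rik nearest. Of 15 other adhesion and junction genes, 7 had a peak and 1, Jam3, a shared region (5.49 and 4.52). Of 4 junction partner genes, 2 had a peak and 1, Cgnl1, which encodes paracingulin, shared regions with fold enrichments of up to 23.6 and 12.2. The strongest of these was intergenic, 19.8 kb outside Cgnl1, and Gcom1 had the nearest start site. The fragment numbers there, 96 and 103, and at Aplnr, 91 and 68, exceeded those at every one of the 10 members.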

How the data were processed

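ChIP-seq reads were aligned by the authors to mm9 with Bowtie, duplicates were removed, and peaks were called per replicate with MACS2 2.0.10, replicate 1 against an input and replicate 2 without one. The deposited peak lists give a score, the fold enrichment (a ratio of ChIP fragments to local background at the summit, each with 1 added and, in replicate 1, first multiplied by 1.34) and −log10 p and q values. The submitted list of positions without values was not used. Fragments at each summit were recovered from the deposited fold and −log10 p of the Poisson test (100% of peaks solved, tolerance 0.003 in −log10 p), after a check on simulated peaks. Total read depth per sample was not used here, and precision is given by summit fragments (12 to 206 in replicate 1 and 18 to 236 in replicate 2, medians 27 and 35). Paired peaks of the lists differed by more than counting error (mean chi-square of 2.15 per pair, where 1 is counting error) and were treated as separate samples on the labels. The names of both lists carry the same ChIP number, and the difference does not show that the ChIPs were separate.

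Genes and start sites came from GENCODE for mm9, whose chromosome names matched all 22 of the lists. Peaks overlapping by at least 1 bp were called shared. Windows of 100 bp around summits were read from the mm9 genome with pysam 0.24.0. A window counted as unique when at least 50% of its 24-base words were found once. Counts and intervals used Python 3.11.15 with scipy 1.17.1. No test between groups was run, because the study has one population. All 10 members and every shared region are named, single-list peaks by the strongest of each list, and of the 38 comparison genes up to 6 with the highest shared fold enrichment. Further single-list peaks were added after their values were seen. The members and lists were chosen with earlier results of these data known. Alternatives were other distances, start site or gene body alone, stricter q, fold and overlap, unique windows, each replicate alone and other motif windows. The sequence of 1 single-list window is not reported here.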

Additional observations from a re-analysis of the deposited data

How the results depend on the processing

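Each count of members and regions was recomputed at 20, 50 and 200 kb, by start site or gene body alone, with q of 1e-05 or less, fold enrichment of at least 5 and unique windows, and sharing also by summits within 50 bp or by an overlap of at least 50% of each peak. The number of regions at the 10 genes fell from 10 to 5 when only the nearest start site was used, and the number of shared regions from 5 to 3 at a fold enrichment of at least 5, which the downstream Kdr and Flt1 peaks of replicate 2 (4.33 and 4.68) do not reach. The other counts stayed within 1.5 times their value. Members with a peak numbered 4 to 6, and members with a shared region 3 to 4, where Esam (start site alone) or Flt1 (fold enrichment, larger overlap) was lost. The share of all genes moved more. It was taken by distance from the gene body alone, whereas the member counts at these distances also kept peaks assigned by the nearest start site. A summit in or within 20, 50 and 200 kb of the gene body was found at 10.5%, 17.3% and 42.3% of all genes. For regions of both lists these shares were 3.84%, 6.53% and 18.7%. Leaving out 1 replicate gave 5 to 6 members with a peak and 7 to 8 regions. Shares of all genes were not computed for 1 list alone, unique windows or the stricter q, fold and overlap. The median fold enrichments did not change with the stricter q, nor the GATA share with the wider window or the replicate 2 summits. No paired analysis was possible because the results come from no test. Without an input for replicate 2 and with 2 samples, sites of 1 list cannot be told apart from chance differences in calling, and the lists do not tell whether weaker sites were present.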
